A study of Homo sapiens with 2 samples.

Results

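Heat shock proteins and chaperonins are the proteins that help other proteins fold, keep them soluble under stress and pass them on for degradation. The genes described here were taken from the deposited counts by their symbols: the HSPA, HSPB, HSPD, HSPE, HSPH and HSP90 symbols, the DNAJA, DNAJB and DNAJC symbols, the CCT subunits and TCP1. The rule found 83 symbols among 24462 in the table, and the rule reads symbols only, not measured values. Of these, 65 reached 5 CPM (reads scaled to a library of standard size) in at least 1 library and are called measured, 81 had at least 1 read, and 2 (DNAJB3 and HSPB9) had none.

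RNA sequencing was done on undifferentiated H9 cells, a human embryonic stem cell line (hESC), and on neural precursor cells (NPC) derived from H9 by growing them together with MS5 feeder cells. Both groups thus come from a single established human pluripotent line, H9, and MS5 is a mouse bone marrow stromal line. No genotype change or added agent is given in the labels for either group, and time in culture is not given. Each group is 1 library, which allows no test of the difference, and no p-value is given. The comparison asks which genes differ in expression between undifferentiated and differentiated H9 cells.

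HSP70 proteins bind short hydrophobic stretches of unfolded chains and release them in a cycle driven by ATP. J proteins (DNAJ) bring clients to HSP70 and start its ATP hydrolysis, while HSP110 proteins and other exchange factors reset it. HSP90 acts later, on near-native clients such as kinases and steroid receptors. Chaperonins are closed barrels: HSPD1 with its lid HSPE1 in mitochondria, and TRiC (also called CCT, made of TCP1 and the CCT subunits) in the cytosol, where it folds actin and tubulin. Heat shock factors raise transcription of many cytosolic members through heat shock elements in their promoters, and endoplasmic reticulum (ER) members are raised through ER stress elements.

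Promoter sequences are shown first, because both elements can be read in them. RefSeq promoters (GRCh38.p14, 250 bases before to 50 after a start site) were found for 71 of the 83 members. They were searched on both strands for the heat shock element, the unit GAA repeated 3 times with the middle one inverted to TTC and any 2 bases between units, and for the ER stress element, CCAAT and CCACG with any 9 bases between. The heat shock element was in 0.49% of all 35116 promoters in the table and in those of 7 members: HSPA6, HSPA8, HSPD1, HSP90AA1, HSP90AB1, DNAJA1 and DNAJB6. The ER stress element was in 0.0769% of all promoters and in those of 2 members, HSPA5 and HSP90B1. A match is a description of the letters, not evidence of a bound factor, and no match says only that these letters are not in this window. The coordinates are those of the RefSeq table, while the reads were processed with hg19. The lines below show the matched stretches of members whose values are given later, with the motif in capitals, 5′ to 3′ on the strand of the gene.
HSP90AB1, chr6:44247811-44247863, plus strand: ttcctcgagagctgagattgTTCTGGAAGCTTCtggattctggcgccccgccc
HSP90AA1, chr14:102087100-102087152, minus strand: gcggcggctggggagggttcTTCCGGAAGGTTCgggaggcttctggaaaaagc
HSPA8, chr11:123062159-123062211, minus strand: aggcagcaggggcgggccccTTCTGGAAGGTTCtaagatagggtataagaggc
HSPD1, chr2:197500062-197500090, minus strand: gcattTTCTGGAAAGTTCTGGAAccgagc
DNAJB6, chr7:157336853-157336905, plus strand: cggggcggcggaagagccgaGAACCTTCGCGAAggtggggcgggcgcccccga
DNAJA1, chr9:33025268-33025296, plus strand: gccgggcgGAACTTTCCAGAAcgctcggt
HSPA5, chr9:125241371-125241429, minus strand: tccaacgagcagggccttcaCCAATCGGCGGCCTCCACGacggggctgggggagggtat
HSP90B1, chr12:103930196-103930254, plus strand: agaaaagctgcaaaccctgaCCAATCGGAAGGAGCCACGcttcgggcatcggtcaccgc
HSP90AB1 and HSPA8 each held another heat shock element in the same promoter, and HSP90B1 another ER stress element, on the other strand. In HSPD1, 2 matches overlap and lie upstream of the gene's inner start site only. In DNAJA1 the match begins 3 bases after the start site.

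Counted reads came to 19686728 in hESC and 24065750 in NPC. A level of 5 CPM corresponds to 86.9 hESC reads or 136 NPC reads. Levels in CPM use library sizes scaled by trimmed mean of M-values (TMM). A ratio is NPC over hESC (log2 ratios use counts plus 0.5), and its 95% interval is an exact counting interval. It holds no variation between cultures. In counts of genes, higher and lower refer to measured genes whose whole interval lay at a difference of 2-fold or more. Others are given by their values and said not to have passed this rule or not to have been called. The marker genes mostly matched the labels: the summed level of 6 pluripotency genes was 6951 CPM in hESC against 29.5 CPM in NPC, and that of 8 neural precursor genes was 613 and 1418 CPM. Of 7 measured neural precursor genes 5 were higher, beside 19.6% of all measured genes, and 3 reached 5 CPM in NPC alone. SOX2 (213 and 283 CPM) and NES (355 and 366 CPM) were not called, and HES5 was not measured.

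Members took a smaller share of the NPC library. They held 570358 reads in the hESC library, which is 2.90% of all reads (exact binomial interval 2.89 to 2.91), and 347566 reads in the NPC library, which is 1.45% (1.44 to 1.45). Of the 65 measured members, 24 were lower in the NPC library and 3 were higher, while 38 did not pass the size rule. Among all 13535 measured genes 19.8% were lower and 19.6% were higher. The median log2 ratio of the measured members was -0.42, against -0.09 for all measured genes. With library totals in place of TMM every log2 ratio is 0.36 higher: 16 members were then lower and 10 higher, against 13.2% and 27.0% of all genes, and the members' median was 0.02 against 0.31.

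The lower members were mostly the abundant ones. Of 31 members with a mean of at least 100 CPM over both libraries, 19 were lower and none was higher, or 61.3% lower against 29% of the 2210 genes at that level. Higher genes were 10.7% of those 2210. Of the 34 measured members below it, 5 were lower and 3 higher, or 14.7% lower against 18.0% of all genes there. Of the 11325 genes there 2412 were higher. Most measured members, 59 of 65, reached 5 CPM in both libraries. Another 3 reached it in the hESC library alone and 3 in the NPC library alone, and those could not have been called in the other direction.

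**Figure D1:**
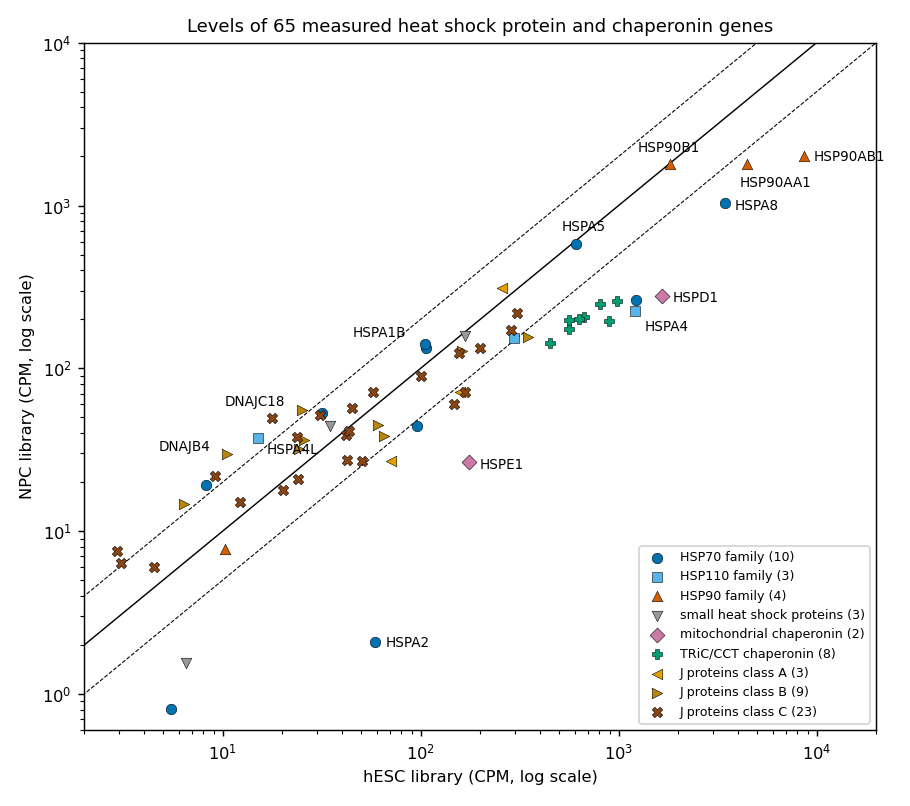
Level of each of the 65 measured members in the hESC library (horizontal) and in the NPC library (vertical), in CPM on log axes, with a symbol for each family. The solid line marks equal levels and the dashed lines 2-fold differences. The TRiC subunits, HSPD1, HSPA8, HSP90AA1 and HSP90AB1 lie below the lower dashed line, and HSP90B1 and HSPA5 lie on the solid line.

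Markers of other cells also differed between the libraries. In a neuron list 6 of 8 genes were higher and none lower, with a summed level of 375 CPM in hESC against 1861 CPM in NPC. Among 11 measured genes of stroma and fibroblasts 7 were higher and 3 lower (793 and 1045 CPM in sum over all 12 listed), and in a list of multiciliated cells all 7 measured genes were higher (9.20 and 60.1 CPM in sum over all 8 listed), each of which reached the filter in NPC alone and could only be called higher. Among 6 measured muscle genes 2 were higher and 4 lower (405 and 65.7 CPM in sum over all 10 listed). Of these, 3 reached the filter in hESC alone and 2 in NPC alone, so each could be called in 1 direction only. The same held for 1 stroma gene in hESC, 5 stroma genes in NPC and 2 neuron genes in NPC. Among all measured genes 19.8% were lower and 19.6% higher. The markers with 0 reads were TEKT1 of the multiciliated list and MYL1 of the muscle list, both in the hESC library. The part of such cells in the chaperone results was not tested, and the table of human genes does not tell reads of mouse feeder cells apart. In bulk RNA, fewer cells of a type and less RNA per cell cannot be told apart.

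All 8 measured TRiC subunit genes were lower in the NPC library, by 2.86-fold to 4.61-fold, beside 19.8% lower among all measured genes. Each had a mean of at least 100 CPM over both libraries. At that level 29% of all genes and 61.3% of members, these 8 included, were lower. TRiC is a double ring in which each of its subunits takes 1 fixed place, so their genes are parts of 1 machine. Their summed level was 5555 CPM in hESC against 1625 CPM in NPC. The median log2 ratio was -1.69, and the subunits lay close together, between -2.21 and -1.51 (SD over the 8 genes 0.22). All 8 were called lower with library totals too, beside 13.2% of all genes.

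CCT5, the epsilon subunit, had 893 CPM in hESC against 194 CPM in NPC and differed most, 4.61-fold (4.47 to 4.76). CCT3, the gamma subunit, had 980 and 259 CPM, 3.78-fold lower (3.68 to 3.89). CCT7, the eta subunit, differed least, with 562 and 197 CPM, 2.86-fold lower (2.76 to 2.95). The other subunits lay within a narrow band between these. CCT8 (804 and 248 CPM) was 3.25-fold lower and CCT6A (672 and 207 CPM) 3.24-fold lower. CCT2 (563 and 175 CPM) was 3.21-fold lower. TCP1, the alpha subunit (631 and 201 CPM), was 3.14-fold lower and CCT4 (450 and 144 CPM) 3.13-fold lower.

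Per kilobase of the longest transcript, CCT3 was highest in the hESC library at 456 CPM per kb and CCT4 lowest at 178 CPM per kb, a spread of 2.56-fold. In the NPC library CCT8 was highest at 124 CPM per kb and CCT5 lowest at 52.7 CPM per kb, a spread of 2.35-fold. The last place of CCT5 depends on its length: its longest transcript has 3.67 kb, against at most 2.72 kb for the others. Without division by length CCT4 was lowest in the NPC library at 144 CPM, and CCT5 had 194 CPM. CCT3 and CCT8 held the first places in both libraries and CCT7 the third. CCT6B, a copy of CCT6A known from testis, had 25 hESC reads and 133 NPC reads. Its ratio was 3.35 (2.21 to 5.44), and it stayed just under the filter at 4.89 CPM in the NPC library. With library totals, or with the filter at 1 CPM, it passed and was called higher, the opposite direction to the other subunits.

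**Figure D2:**
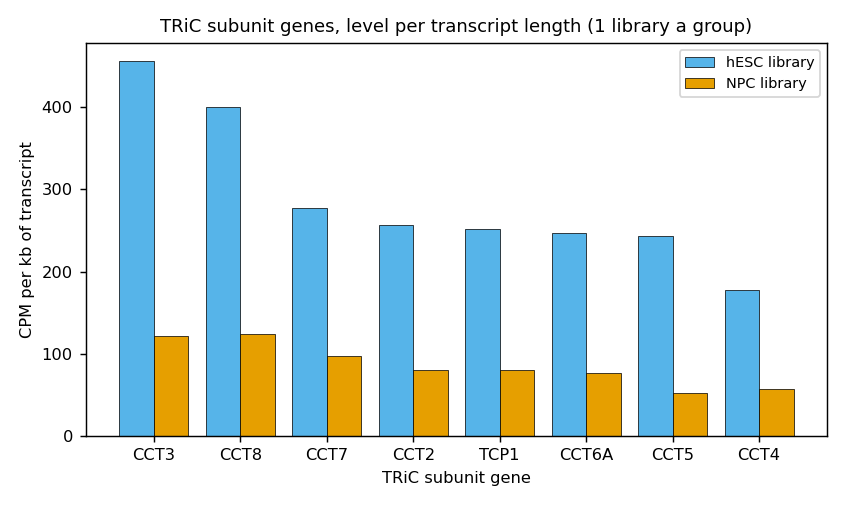
Level of the 8 measured TRiC subunit genes in CPM per kilobase of the longest transcript, ordered by the hESC library, with 1 bar for each library and no error bars because each group is 1 library. Every subunit has the shorter bar in the NPC library, and CCT5 goes from 243 to 52.7 CPM per kb.

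Some TRiC reads could belong to other genes. Windows of 50 bases were matched on both strands. Of those of the longest CCT5 transcript 47.1% also occur in AC012640.4, and 22.1% of those of TCP1 occur in some other gene, 14.3% in ACAT2. Neither strand use nor the handling of reads with several matches is stated. The share in any other gene was 10.5% for CCT4, 8.59% for CCT8 and 6.67% for CCT6A.

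Most mitochondrial members in a list of 8 were lower as well under TMM, and the list need not hold every such member. Of the 7 measured in this list 5 were lower and none was higher, beside 19.8% lower among all measured genes (median log2 ratio -1.39). With library totals 3 were lower, namely HSPD1, HSPE1 and HSPA9, beside 13.2% of all genes (median -1.04). HSPD1, the barrel of the mitochondrial chaperonin, had 28759 reads (1654 CPM) in hESC against 7523 reads (277 CPM) in NPC. It was 5.98-fold lower (5.83 to 6.14). HSPE1, its lid, had 3057 reads (176 CPM) and 725 reads (26.7 CPM) and was 6.60-fold lower (6.08 to 7.16). Their ratio to each other was similar in both libraries, with 9.41 HSPD1 reads for each HSPE1 read in the hESC (9.06 to 9.77) and 10.4 in the NPC (9.61 to 11.2).

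HSPD1 and HSPE1 face away from each other on chromosome 2. Their RefSeq start sites lie 105 bases apart, at 197500274 for HSPD1 on the minus strand and 197500379 for HSPE1 on the plus strand (GRCh38.p14). The stretch between them is shown because it precedes both genes, whose ratios were close, and it holds no match to either motif.
HSPD1-HSPE1, chr2:197500275-197500378, plus strand: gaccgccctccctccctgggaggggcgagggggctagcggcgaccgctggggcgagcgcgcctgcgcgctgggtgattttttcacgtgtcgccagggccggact
Of the 50-base windows of HSPE1, 52.9% also occur in some other gene, 25.7% in HSPD1 and 16.0% in HSPE1-MOB4, so the reads behind its ratio are uncertain. Of the windows of HSPD1, 25% occur in some other gene, among them its pseudogene HSPD1P1 with 16.8%.

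HSPA9, the mitochondrial HSP70 that pulls chains through the inner membrane, had 1231 CPM in hESC against 264 CPM in NPC, 4.67-fold lower (4.55 to 4.80). DNAJA3, a mitochondrial J protein, had 70.8 and 26.9 CPM, 2.63-fold lower (2.40 to 2.89). DNAJC11, which associates with the inner membrane organising system, had 147 and 60.4 CPM, 2.43-fold lower (2.29 to 2.59), with 42.0% of its windows shared with THAP3. Neither DNAJA3 nor DNAJC11 was called with library totals. DNAJC19, tied to the import motor, had 50.4 and 26.9 CPM and did not pass the rule, nor did DNAJC30 with 4.49 and 5.99 CPM. DNAJC15 was under the filter with 7 and 18 reads.

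Mitochondrial chaperones and proteases with other names were counted as well: 3 of 6 were lower and none higher, beside the same 19.8% of all genes (median log2 ratio -1.32). TRAP1, the mitochondrial HSP90, had 406 and 87.0 CPM and was 4.67-fold lower (4.46 to 4.90). LONP1, a protease of the matrix, had 220 and 55.4 CPM, 3.97-fold lower (3.74 to 4.22).

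In a list of 8 ER members none was called in either direction, while 39.4% of all measured genes were. The list does not hold every ER member. Among others it leaves out DNAJC18, a J protein of the ER membrane that was higher and is described with the J proteins. The median log2 ratio of the 8 listed was -0.05, and 0.31 with library totals, where DNAJB9 was called higher. HSP90B1, the ER form of HSP90, had 31777 reads (1828 CPM) in hESC against 48692 reads (1790 CPM) in NPC. Its ratio lay at 1.02-fold lower (1.01 to 1.04). HSPA5, the ER form of HSP70, had 607 and 581 CPM, 1.04-fold lower (1.02 to 1.07). With library totals the HSPA5 log2 ratio was 0.29, and that of HSP90B1, -0.03 under TMM, was above 0 too, so the sign of both depends on the scaling.

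The other ER members spread on both sides. DNAJB11, which feeds clients to HSPA5, had 161 and 127 CPM (21.1% of its windows occur in other genes), and DNAJC10, a J protein with disulfide reductase activity, had 156 and 124 CPM. DNAJC3, an inhibitor of eIF2 alpha kinases, had 41.9 and 39.0 CPM. HSPA13, a small ER relative of HSP70, had 31.9 and 52.9 CPM and DNAJC1 31.1 and 51.7 CPM, each 1.66-fold higher without passing the rule. DNAJB9, a target of the unfolded protein response, had 6.39 and 14.7 CPM, a ratio of 2.30 whose lower bound of 1.87 missed the rule.

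Among ER folding and stress genes with other names 2 of 15 measured genes were lower and 13 did not pass the rule, beside 19.8% lower among all measured genes (median log2 ratio -0.30, and 0.06 with library totals, where none was called). The lower ones were ATF4, a factor of the integrated stress response, with 421 and 168 CPM (2.50-fold, 2.41 to 2.60), and SDF2L1, a partner of ER J proteins, with 12.7 and 4.96 CPM (2.55-fold, 2.05 to 3.18). SDF2L1 reached the filter in hESC alone and could only be called lower. The lectin chaperone genes CALR (1938 and 1576 CPM) and CANX (899 and 1006 CPM) did not pass the rule.

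The cytosolic HSP90 and HSP70 genes used in unstressed cells were lower as well. HSP90AB1, the constitutive HSP90, was the most read member in both libraries, with 150780 reads (8674 CPM) in hESC against 54975 reads (2021 CPM) in NPC. It took 0.767% of all hESC reads and 0.229% of all NPC reads, and was 4.29-fold lower (4.25 to 4.33). HSP90AA1, the more inducible HSP90, had 4450 and 1801 CPM, 2.47-fold lower (2.44 to 2.50). With library totals its log2 ratio was -0.95 and it was not called. HSPA8, the constitutive HSP70 of the cytosol, had 3453 and 1035 CPM, 3.34-fold lower (3.29 to 3.38).

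Ratios between genes of 1 library do not depend on library scaling, and they set cytosolic genes against their ER counterparts. Such ratios still depend on how reads shared with other genes were counted. For each HSP90B1 read there were 4.74 HSP90AB1 reads in the hESC library (4.69 to 4.80) and 1.13 in the NPC library (1.12 to 1.14). For each HSPA5 read there were 5.69 HSPA8 reads in hESC (5.57 to 5.81) and 1.78 in NPC (1.75 to 1.82). The 8 listed ER members made up 8.73% of all member reads in hESC and 21.8% in NPC. The share of the listed mitochondrial members was 10.2% and 5.38%, and that of the TRiC genes 16.9% and 12.8%. Per kilobase of transcript HSP90AB1 was at 3244 CPM per kb in hESC and 756 in NPC, where HSP90B1 was at 590 CPM per kb and HSP90AA1 at 513 CPM per kb.

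The stress-inducible HSP70 genes were not called. HSPA1A had 107 CPM in hESC against 133 CPM in NPC, a ratio of 1.24 (1.17 to 1.31). HSPA1B had 105 and 141 CPM, a ratio of 1.34 (1.27 to 1.42). These are near-identical neighbours, and 72.6% of the 50-base windows of HSPA1A also occur in HSPA1B, so how their reads were divided is uncertain. For each HSPA1A read there were 32.2 HSPA8 reads in hESC (30.7 to 33.7) and 7.79 in NPC (7.52 to 8.06). HSPA6, which is nearly silent outside strong stress, had 1 and 3 reads, and its pseudogene HSPA7 had 2 and 0.

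Over a list of 12 heat-inducible members 11 were measured, of which 4 were lower (HSPD1, HSPE1, HSPA8 and HSP90AA1) and 1 higher, HSPA4L (median log2 ratio -0.43, and -0.07 with library totals). Among all measured genes 19.8% were lower and 19.6% higher. DNAJB1, the J protein of the heat response, had 60.6 and 45.1 CPM. HSPB1, the small heat shock protein HSP27, had 167 and 157 CPM, a log2 ratio of -0.08 that was 0.27 with library totals. DNAJA1 had 259 and 311 CPM, a ratio of 1.20 (1.16 to 1.24). None of these 3 passed the rule. The transcription factor genes HSF1 (63.1 and 38.3 CPM) and HSF2 (26.9 and 43.1 CPM) did not pass it either, and HSF4 and HSF5 were under the filter.

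Set beside the promoters shown above, members with the same element did not all have the same ratio. Of the 7 members with a heat shock element, HSPA8, HSPD1, HSP90AA1, HSP90AB1 and DNAJB6 were lower, DNAJA1 was not called and HSPA6 was not measured. Beside these, 19.8% of all measured genes were lower. So were 61.3% of members at a mean of at least 100 CPM, a level that every measured member with the element reached. A link between the element and the calls was not tested. Both members with an ER stress element, HSPA5 and HSP90B1, had ratios within 1.04-fold of no change under TMM. No promoter of a TRiC gene in the table matched either motif, and none was found for CCT6A.

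**Figure D3:**
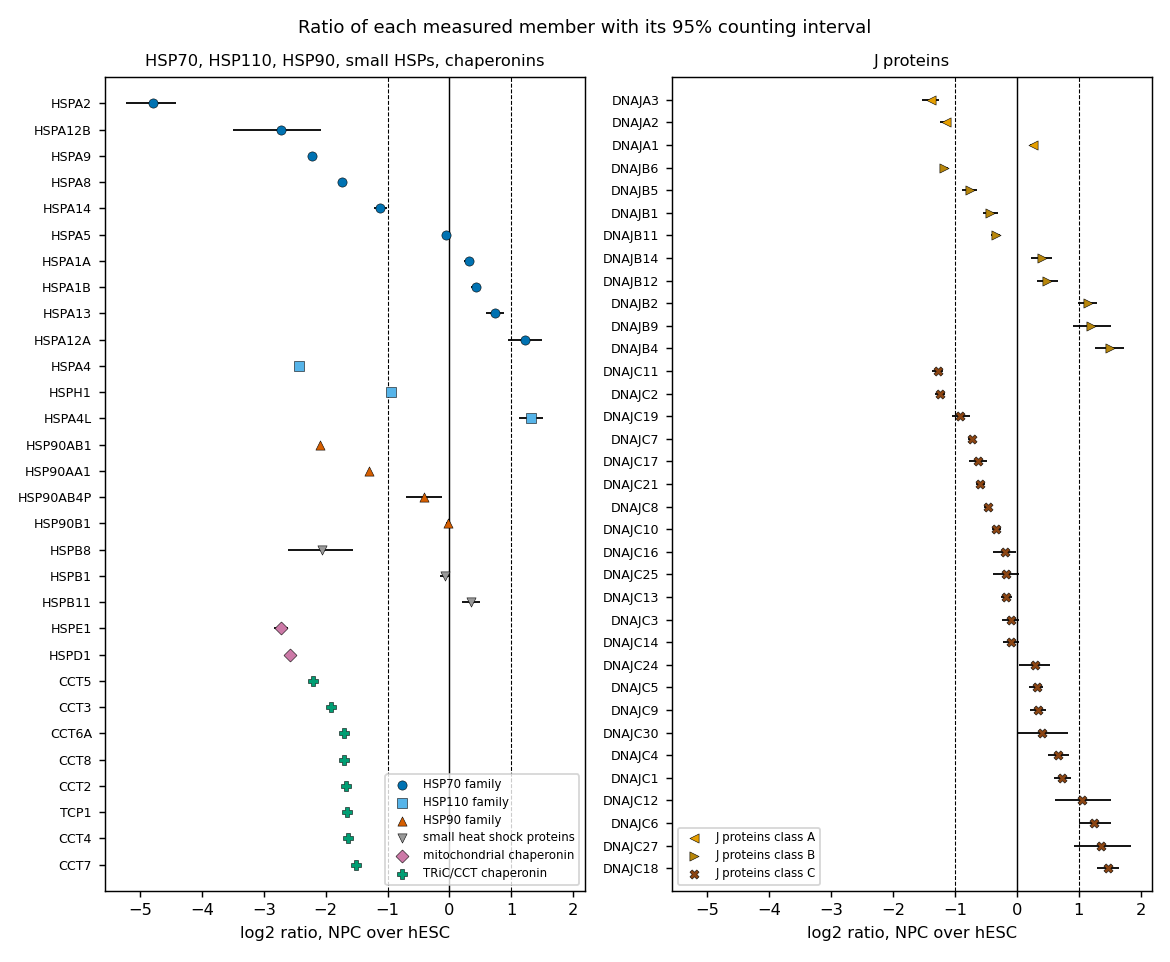
Log2 ratio, NPC over hESC, of each measured member (symbols by family) with its 95% counting interval (horizontal lines, often shorter than the symbol). The solid line marks no change and the dashed lines 2-fold. HSPA2 at -4.80 is farthest to the left, all TRiC and mitochondrial chaperonin genes lie left of the -1 line, and the J proteins lie between -1.39 and 1.5.

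The remaining HSP70 genes differed widely. HSPA2, an HSP70 known for its role in the male germ line, had 1021 reads (58.7 CPM) in hESC against 57 reads (2.10 CPM) in NPC. It was 27.8-fold lower (21.5 to 37.3), the largest difference among measured members. Only its hESC level reached the filter, so a higher call was not open to it. HSPA12B, a distant relative found in endothelium, had 95 and 22 reads and was 6.64-fold lower (4.22 to 11.3), although it lay close to the filter and was not measured with library totals. HSPA12B too reached the filter in hESC alone and could only be called lower. HSPA14, which acts with a J protein at the ribosome, had 95.6 and 44.0 CPM, 2.17-fold lower (2.01 to 2.34), and was not called with library totals or upper-quartile scaling. HSPA12A, a relative enriched in brain, had 8.23 and 19.2 CPM, a ratio of 2.32 (1.93 to 2.82) that missed the rule.

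The HSP110 exchange factors split in 3 ways. HSPA4 had 1215 CPM in hESC against 224 CPM in NPC, 5.42-fold lower (5.27 to 5.58). HSPH1 had 297 and 154 CPM, 1.92-fold lower (1.85 to 2.0), just short of the rule, and was called lower with the trend of the ratio with transcript length removed. HSPA4L had 15 and 37.4 CPM and was 2.49-fold higher (2.17 to 2.86). There were thus 80.9 HSPA4 reads for each HSPA4L read in the hESC library (71.6 to 91.7) and 5.99 in the NPC library (5.61 to 6.41). The longest HSPA4L transcript is 10.8 kb, and with that trend removed its log2 ratio was 0.92 and it was not called.

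Other exchange and holding factors of HSP70 gave 4 lower genes and 1 higher among 13 measured, beside 19.8% lower and 19.6% higher among all genes (median log2 ratio -0.53). With library totals the counts were the same, beside 13.2% and 27.0% of all genes (median -0.17). BAG2, an inhibitor of the ubiquitin ligase CHIP, had 20 and 4.74 CPM, 4.20-fold lower (3.43 to 5.19), and BAG4 had 63.2 and 16.5 CPM, 3.82-fold lower (3.43 to 4.28). BAG2 reached the filter in hESC alone and could only be called lower. GRPEL1 (40.4 and 10.9 CPM) and GRPEL2 (46.8 and 16.0 CPM), the exchange factors of HSPA9, were the other lower genes. SIL1, an exchange factor of HSPA5, had 8.97 and 29.2 CPM and was 3.24-fold higher (2.74 to 3.89).

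Co-chaperones of HSP90 were lower in most cases under TMM. Of 18 measured genes 11 were lower and 1 higher, beside 19.8% and 19.6% of all genes (median log2 ratio -1.20). With library totals 5 were lower and 1 higher, beside 13.2% and 27.0% of all genes (median -0.84). FKBP5, an immunophilin of steroid receptor complexes, had 189 and 14.4 CPM, 13.1-fold lower (11.8 to 14.6). Its relative FKBP4 had 824 and 112 CPM, 7.39-fold lower (7.10 to 7.69). STIP1, which links HSP70 to HSP90, had 721 and 170 CPM, 4.23-fold lower (4.09 to 4.38). AHSA2, a relative of the HSP90 ATPase activator AHSA1, had 2.93 and 35.6 CPM and was 12.0-fold higher (9.15 to 16.4). Only its NPC level reached the filter, so a lower call was not open to it.

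Prefoldin hands unfolded actin and tubulin to TRiC, and phosducin-like proteins assist TRiC. In that list 2 of 9 measured genes were lower and none higher (median log2 ratio -0.46), a share of lower genes near the 19.8% of all measured genes. The lower ones were the prefoldin subunit genes PFDN6 (64.5 and 22.4 CPM, 2.88-fold, 2.61 to 3.19) and PFDN4 (108 and 42.2 CPM, 2.56-fold, 2.37 to 2.75). With library totals 1 of the 9 was lower (median -0.10).

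**Figure D4:**
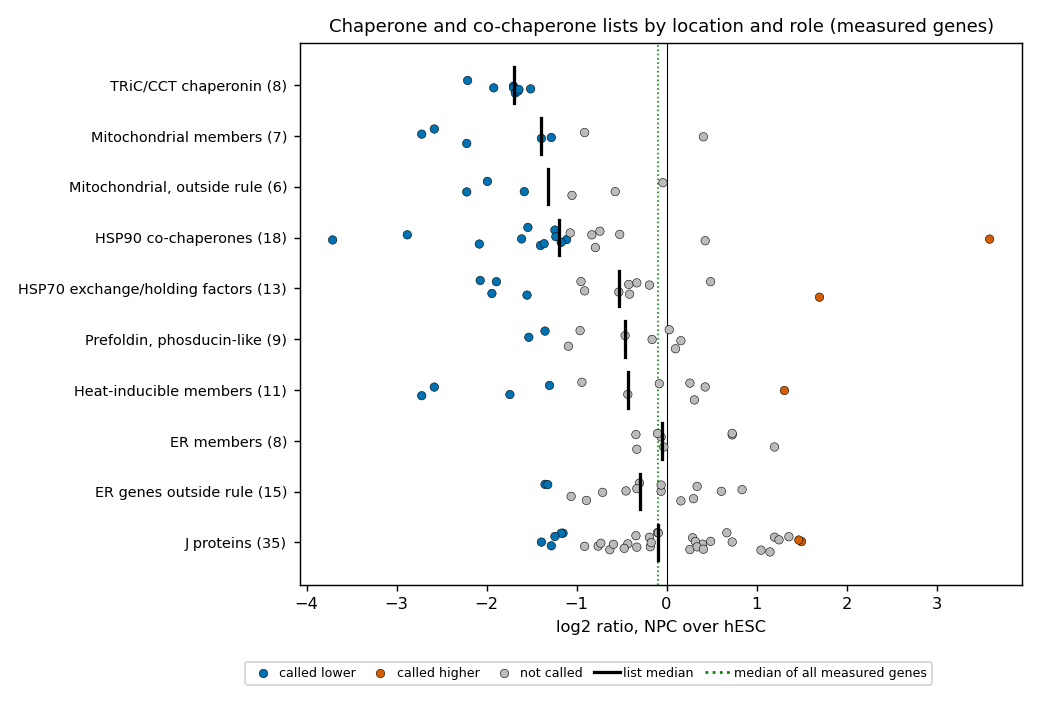
Log2 ratio, NPC over hESC, of each measured gene (points, jittered vertically) in lists by location and role, with the number measured in brackets. Blue points were called lower, orange points higher and grey points neither. Black bars are list medians and the dotted line is the median of all measured genes at -0.09. The TRiC median is at -1.69 and that of the ER members at -0.05.

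Of 35 measured J protein genes 5 were lower and 2 higher, beside 19.8% and 19.6% of all measured genes, with a median log2 ratio of -0.10, against 19 lower and 1 higher among the 30 measured members that are not J proteins (median -1.65). With library totals the balance of calls turned: no J protein gene was lower, and 3 of class B and 4 of class C were higher, beside 13.2% lower and 27.0% higher among all genes. The median of class B was then 0.75 and that of class C 0.26, so the sign for class C depends on the scaling, and class A stayed negative at -0.79. The 7 called J proteins came from all 3 classes.

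In class A, which resembles the bacterial DnaJ in full, DNAJA2 had 158 and 71.1 CPM, 2.22-fold lower (2.09 to 2.35). It was not called with library totals or with the length trend removed. In class B, DNAJB6, a suppressor of polyglutamine aggregation, had 350 and 155 CPM, 2.25-fold lower (2.17 to 2.34). DNAJB4, a relative of DNAJB1, had 10.5 and 29.6 CPM and was 2.82-fold higher (2.41 to 3.34). In class C, DNAJC2, which sits on the ribosome, had 168 and 71.1 CPM, 2.37-fold lower (2.24 to 2.51). DNAJC18, a J protein of the ER membrane, had 17.7 and 49.2 CPM and was 2.77-fold higher (2.45 to 3.15). DNAJB6 and DNAJC2 were not called with library totals, while DNAJB4 and DNAJC18 were. DNAJC8, tied to the spliceosome, was the highest of class C per length, with 174 CPM per kb in the hESC and 125 CPM per kb in the NPC library.

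J proteins with roles in the nervous system or in cilia included 5 measured genes, of which 1 was lower, DNAJB6, and none was higher. Lower genes were thus about as frequent as among all measured genes (19.8% lower, 19.6% higher). DNAJC6, the auxilin that uncoats clathrin vesicles, had 9.15 and 21.8 CPM, a ratio of 2.38 (2.0 to 2.86) whose bound rounds to the threshold but lies under it. DNAJB2, enriched in neurons, had 25.1 and 55.6 CPM, a ratio of 2.22 (1.99 to 2.47). Both were called higher with library totals or upper-quartile scaling. DNAJC5, the cysteine string protein of synaptic vesicles, had 57.6 and 71.7 CPM. DNAJB13, found in the radial spokes of cilia, had 1 hESC read and 25 NPC reads, under the filter, and 40.6% of its windows occur in another gene, AP003717.1. Its ratio was 10.9 (2.62 to 656), beside values of 2 multiciliated marker genes, RSPH1 with 6 and 326 reads and FOXJ1 with 62 and 290 reads.

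Small heat shock proteins were largely silent in both libraries. Of 8 members 3 were measured. HSPB8, a partner of BAG3, had 113 and 42 reads (6.5 and 1.54 CPM) and was 4.18-fold lower (2.93 to 6.15). Only its hESC level reached the filter, so a higher call was not open to it. HSPB11, a part of the intraflagellar transport machinery, had 35 and 44.3 CPM and HSPB1 stayed within the rule as given above. HSPB2, HSPB3, HSPB6 and HSPB7, known from muscle, had at most 12 reads in either library. CRYAB, the alpha crystallin that carries another naming, had 38 and 383 reads (2.19 and 14.1 CPM) and was 6.37-fold higher (4.61 to 9.24). Only its NPC level reached the filter, so a lower call was not open to it.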

How the data were processed

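The authors deposited a table of counts, with a row per symbol and a column per library. The values are whole numbers with unequal totals, as raw counts are. TopHat, edgeR and hg19 are named, per the submitters' processing notes, without their roles. How reads were counted (tool, annotation, strand, reads with several matches) is not given in the sources used here. Per the labels' protocols 1.3 µg of total RNA in Trizol went into each library, made with a SMARTER mRNA-Seq kit. No batch is labelled. Any batch effect and the group difference cannot be told apart here.

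For symbols on several rows (3 of the members) the row with most reads was kept. TMM factors (edgeR 4.0.16, R 4.3.3) were 0.884 (hESC) and 1.13 (NPC). Ratios carry exact 95% Clopper-Pearson counting intervals of the NPC share of a gene's reads. These cover counting error only. PCR copies were not marked by molecular identifiers, so the intervals may be too narrow even for that error. Lengths are of the longest GENCODE 29 transcript. Promoters are RefSeq's. The interval code was tested on simulated data. Alternatives were other scalings (DESeq2 1.42.0 among them), filters, size rules, summed rows, removal of ribosomal protein and mitochondrial genes, and removal of a lowess trend with length (statsmodels 0.14.6, fraction 0.5). Other software was scipy 1.17.1, pandas 2.3.3, numpy 2.4.6 and Python 3.11.15.

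The members and lists were chosen with earlier results of these data known. Named are all called members, all TRiC genes, the member of each family highest per length, HSPA1A, HSPA1B, HSPA5, HSPA8, HSP90AA1, HSP90AB1, HSPD1 and HSPE1, and up to 2 called genes each way in lists outside the rule. Other genes named, such as HSP90B1, HSPH1, STIP1, GRPEL1, GRPEL2, DNAJC6, DNAJB2 or DNAJB13, were chosen after their values were seen. Protein sequences were not used here, and 1 listed gene, SELS, was not found by that symbol.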

Additional observations from a re-analysis of the deposited data

How the results depend on the processing

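The count of 24 lower members lay between 16 and 28 under all alternatives but a 4-fold bound, which left 8. The count of 3 higher members was 10 with library totals, 5 with upper-quartile scaling or with no filter, 0 with a 4-fold bound, 11 with a 1.5-fold bound and 9 with the point ratio alone. The median log2 ratio of the measured members, -0.42 under TMM, turned to 0.02 with library totals and lay between -0.53 and -0.19 otherwise. Of 35 named members 32 kept their sign throughout. With library totals the log2 ratio was 0.29 for HSPA5, 0.02 for DNAJB11 and 0.27 for HSPB1, and HSPB1 was at 0.37 with the length trend removed. These settings were planned. Counts for 4 lists were added after seeing the data. The 8 lower TRiC genes became 1 with a 4-fold bound, and the 5 lower of the listed mitochondrial members 3 with that bound or with library totals. The 11 lower HSP90 co-chaperones became 3 with that bound and 5 with library totals. The 0 called of the 8 listed ER members became 1 with library totals, with the point ratio or with the length trend removed, and 3 with a 1.5-fold bound. The cause of these changes was not tested beyond the construction of each rule. No paired analysis was possible because each group has 1 library. For the same reason no replicate could be left out. Genes with few reads, such as HSPA12B or DNAJB13, have wide intervals, and for a gene without reads levels of up to 0.173 CPM (hESC) or 0.110 CPM (NPC) remain possible.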
